A study of Caenorhabditis elegans with 2 samples.

Results

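The dosage compensation complex of Caenorhabditis elegans is encoded by the 10 genes described here, sdc-1, sdc-2, sdc-3, dpy-21, dpy-26, dpy-27, dpy-28, dpy-30, mix-1 and capg-1. They were taken by name, as 10 of 19973 nuclear protein-coding genes, and every deposited peak from 2000 bp upstream of each gene to its end was described. The peaks mark where the chromatin protein HMG-1.2 was recovered by chromatin immunoprecipitation and sequencing (ChIP-seq). The animals were whole young adults of strain RW12210, aged 65 h and synchronised by bleaching and L1 starvation. They were all engineered with CRISPR to carry TY1, EGFP and 3xFLAG tags on the gene hmg-1.2, which lies on chromosome III. According to the labels, the antibody used for immunoprecipitation was raised against GFP, although their antibody field reads hmg-1.2. There was 1 group of 2 biological replicates, so no contrast between conditions exists and no test was made. Whole animals mix all tissues, so the cells that gave a peak are unknown.

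In XX hermaphrodites the complex is assembled on both X chromosomes and lowers their transcription. SDC-2, an X-targeting protein made in hermaphrodites, brings it there together with the zinc finger proteins SDC-1 and SDC-3 and with DPY-30, which also belongs to the COMPASS histone methyltransferase. The core is a condensin, a ring-shaped complex that compacts chromosomes. It consists of the SMC ATPases DPY-27 and MIX-1, the kleisin DPY-26, which closes the ring, and the HEAT-repeat subunits DPY-28 and CAPG-1. DPY-21 is a demethylase of histone H4 that acts with the complex. Apart from DPY-27, these condensin subunits also serve in a mitotic condensin. HMG-1.2 is an HMG-box protein, from a family that binds and bends DNA.

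The authors' conservative list over both replicates held 4149 peaks and their second thresholded list held 6058. The replicates' own thresholded lists held 3340 peaks in replicate 1 and 5333 in replicate 2. Read totals are not given in these lists, so the depth is unknown, and a gene without a listed peak is not shown to be free of HMG-1.2. Each peak carries a score derived from the IDR, the irreproducible discovery rate, a measure of the agreement in rank between the lists compared. No thresholded peak scored under 830, which corresponded to an IDR of 0.01. The deposited signal is the authors' own value in a unit the sources used here do not give. It is used only to rank peaks within a list. Ranks from lists of different lengths are given side by side and show no change.

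Of the 10 genes, 6 had a conservative peak in their region: sdc-1, sdc-2, sdc-3, dpy-27, dpy-30 and mix-1. Together they held 7 peaks, 5 of them with the summit 120 to 681 bp upstream of the member gene, 1 at the far edge of the sdc-1 region and 1 inside mix-1. In 4 genes (dpy-30 and the 3 sdc genes) the summit lay in the promoter window, against 9.68% of all protein-coding genes. This window was defined as 500 bp upstream to 100 bp downstream of an annotated 5′ end. Neither dpy-21 nor dpy-28 had a peak in any of the 4 thresholded lists.

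The sequences under the summits that lead the results are shown here, each holding the summit and 50 bp on either side and read 5′ to 3′ on the strand of the member gene. They come from the RefSeq copy of the WBcel235 genome, which is the ce11 build of the peak lists. Capitals mark the letter strings that were searched for. CTTTGA is the core site of TCF-type HMG-box factors. AACAAT is that of SOX-type HMG-box factors. TTTTTT is a run of T, and GAGAG is a GA repeat. TGACGT is a core site of bZIP factors. GCGCAG is the core of a motif found at the X recruitment sites of the complex. The strings GGTTCGA, known from tRNA genes, and, from the tRNA gene beside sdc-1, the letters GGTCTAG were chosen after the windows were seen. Each string was sought on both strands, so a run of A and the repeat CTCTC are also in capitals. GAGAG can overlap itself, and the other strings did not overlap one another in these windows.
sdc-1 promoter, chrX:16275409-16275509, plus strand: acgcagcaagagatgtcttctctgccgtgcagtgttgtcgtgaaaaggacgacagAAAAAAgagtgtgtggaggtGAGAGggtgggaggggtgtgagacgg
sdc-2 promoter, chrX:11522238-11522338, plus strand: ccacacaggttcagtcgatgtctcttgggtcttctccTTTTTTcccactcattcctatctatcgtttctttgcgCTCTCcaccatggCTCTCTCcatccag
sdc-3 promoter, chrV:15048277-15048377, minus strand: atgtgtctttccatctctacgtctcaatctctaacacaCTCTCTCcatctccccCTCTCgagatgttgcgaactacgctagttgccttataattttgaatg
dpy-30 promoter, chrV:12191126-12191226, plus strand: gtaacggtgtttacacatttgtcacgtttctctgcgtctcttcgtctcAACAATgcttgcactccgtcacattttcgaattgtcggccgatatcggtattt
dpy-27 upstream, chrIII:3820310-3820410, minus strand: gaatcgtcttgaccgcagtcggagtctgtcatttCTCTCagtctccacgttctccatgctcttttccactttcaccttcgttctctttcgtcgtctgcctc
mix-1 intron, chrII:10840219-10840319, plus strand: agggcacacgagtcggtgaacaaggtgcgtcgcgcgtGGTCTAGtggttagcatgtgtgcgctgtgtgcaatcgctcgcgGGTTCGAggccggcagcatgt
sdc-1 region edge at a tRNA gene, chrX:16273709-16273809, plus strand: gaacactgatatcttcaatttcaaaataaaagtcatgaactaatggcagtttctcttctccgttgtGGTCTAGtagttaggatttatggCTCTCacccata

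Over these 7 windows the GC content had a median of 49.5%. The lowest value was 36.6% (the tRNA edge of sdc-1) and the highest was 62.4% (the window at the mix-1 intron). All 4149 conservative windows had a median of 48.5% and quartiles of 43.6% and 54.5%, while the nuclear genome has 35.4%. The members' median was thus near that of all peaks, while 1 member window lay below the lower quartile and 1 above the upper one. GAGAG was found in 5 of the 7 windows, and 50.5% of all conservative windows hold it. AACAAT occurred in 1 (dpy-30), against 5.95% of all windows. TTTTTT occurred in 2 (sdc-1 and sdc-2), against 16.9% of all windows. No member window held CTTTGA, against 5.21% of all windows. None held TGACGT, which 3.52% of all windows hold. None held GCGCAG either, which occurs in 8.89% of all windows. These matches describe letters and are not binding sites.

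The conservative promoter peaks were those of the sdc genes and dpy-30. The sdc-1 gene, which encodes a zinc finger protein (WBGene00004745, chromosome X, 16275763 to 16282534, plus strand) had its promoter peak at 16275335 to 16275598, between genes, with the summit 304 bp upstream of the nearest 5′ end. Its signal was 578 in the conservative list, rank 772 of 4149. In replicate 1 the signal was 113 (rank 1353 of 3340) and in replicate 2 it was 469 (rank 641 of 5333). The summits of the replicates were 15 bp apart, so the same place was marked in both.

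The sdc-2 gene (WBGene00004746, chromosome X, 11522707 to 11533450, plus strand), whose product triggers assembly of the complex on X, had a single peak, at 11522154 to 11522388. Its summit lay 419 bp upstream, and the nearest annotated gene on that side was 3470 bp from sdc-2 (piRNA genes not counted). The conservative signal was 328, rank 1519. Replicate 1 had a signal of 94.8 (rank 1634) and replicate 2 had 239 (rank 1429). The peak was listed in both replicates, with summits 19 bp apart.

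The sdc-3 gene (WBGene00004747, chromosome V, 15039148 to 15048207, minus strand) had the summit closest to its 5′ end, at 120 bp upstream. The peak ran from 15048270 to 15048429 and had a conservative signal of 345, rank 1455. It was present in the thresholded list of replicate 2 (signal 309, rank 1093) and absent from that of replicate 1. In the longer ranked list of replicate 1 a peak did lie there, with its summit 94 bp upstream, a signal of 34.7 and an IDR of 0.521. Only replicate 2 therefore passed the threshold alone at sdc-3.

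The dpy-30 gene (WBGene00001088, chromosome V, 12191519 to 12192385, plus strand) is the shortest member, with 867 bp. Its promoter peak, at 12191058 to 12191276, had its summit 343 bp upstream and a conservative signal of 528, rank 855. The replicates differed in standing: the signal was 61.0 in replicate 1, at rank 2599 of 3340, and 459 in replicate 2, at rank 653 of 5333. A weaker peak at 12192129 to 12192458 was in the second list only (signal 74.6, rank 5549 of 6058). Its summit was in the last part of dpy-30 and 21 bp downstream of a 5′ end of rnp-1, the overlapping gene on the same strand.

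**Figure D1:**
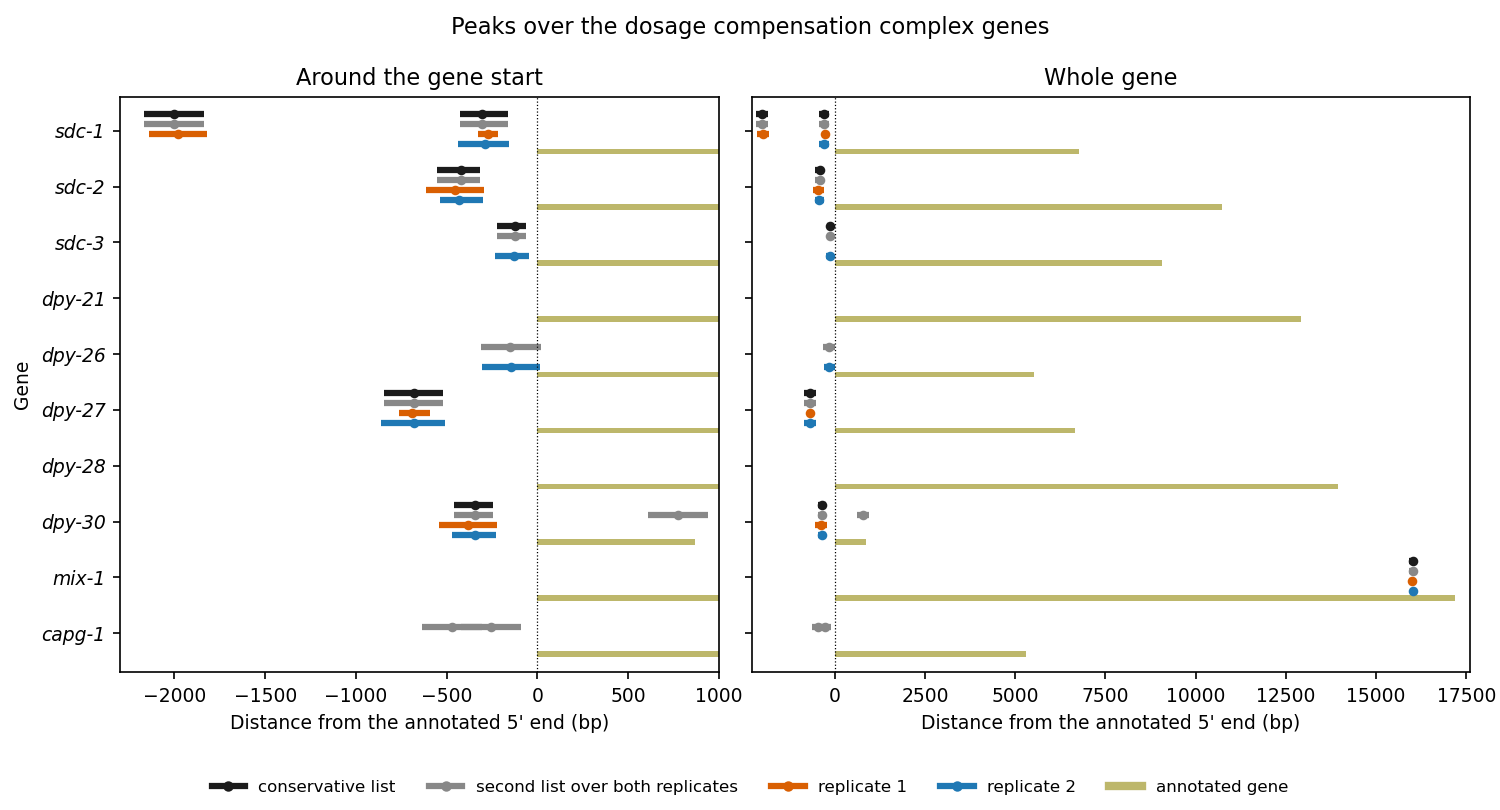
Position of every thresholded peak over the 10 genes, as bars with the summit as a dot, by distance in bp from the annotated 5′ end (negative is upstream); colours stand for the 4 peak lists and the band under each row for the annotated gene. Conservative peaks lie upstream of sdc-1, sdc-2, sdc-3, dpy-27 and dpy-30, mix-1 has its peak 16023 bp downstream of its start, and dpy-21 and dpy-28 have none.

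Among the condensin genes, dpy-27 carried the peak with the highest signal of all 10 members. This gene (WBGene00001086, chromosome III, 3813018 to 3819679, minus strand) encodes the SMC subunit that distinguishes the dosage compensation condensin from the mitotic ones. The peak lay at 3820200 to 3820524 with a conservative signal of 880, rank 426. In replicate 1 the signal was 195 (rank 680) and in replicate 2 it was 694 (rank 349), and the summits were 9 bp apart. The summit was 681 bp upstream of dpy-27, outside its promoter window, and 87 bp upstream of R13G10.5, a non-coding RNA gene on the same strand that lies 526 bp from dpy-27 and is overlapped by the peak. Which of these genes the peak belongs to cannot be told apart from position.

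The only conservative peak inside a member was in mix-1 (WBGene00003367, chromosome II, 10824246 to 10841424, plus strand), which encodes an SMC protein shared by all condensins of the worm. It lay at 10840167 to 10840340, near the 3′ end of this 17179 bp gene. The conservative summit was 27 bp into intron 13 of 14, an intron of 224 bp. The sequence window shown above starts in the exon before this intron. The snoRNA gene M106.6 (10840317 to 10840391) sits in the same intron on the same strand, and the summit was 48 bp upstream of its 5′ end. The conservative signal was 342, rank 1466. Replicate 1 had a signal of 180 (rank 762) and replicate 2 had 170 (rank 2042). Their summits were 43 bp apart, in a coding exon of mix-1 in replicate 1 and in the intron in replicate 2. Unlike the other 4 peaks found in both replicates, this one stood nearer the top of its list in replicate 1 (at 22.8% of the list) than in replicate 2 (at 38.3%). The promoter of mix-1 held no thresholded peak.

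A second peak at sdc-1 also lay at a small RNA gene. It ran from 16273594 to 16273923 and overlapped the region of sdc-1 only at its edge, with the summit 2004 bp upstream of sdc-1 and 8 bp upstream of a tRNA gene (WBGene00014384, 16273767 to 16273838, plus strand), which RefSeq names F52E10.t1 and lists as a tRNA for glutamate. The peak also overlapped F52E10.6, a non-coding RNA gene on the opposite strand over the same bases. Its conservative signal was 126, rank 3357. Replicate 1 had it in its thresholded list with a signal of 77.5 (rank 2049). Replicate 2 had it only in its ranked list, with a signal of 50.6 and an IDR of 0.0253. In all, 3 of the 7 conservative peaks, those at dpy-27, mix-1 and the edge of sdc-1, overlapped a gene for a non-coding RNA, against 23.5% of all conservative peaks (piRNA genes and pseudogenes not counted).

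The kleisin gene dpy-26 (WBGene00001085, chromosome IV, 12445801 to 12451335, minus strand) had a promoter peak in the second list and in replicate 2. In the second list the peak lay at 12451318 to 12451647, with the summit 148 bp upstream, a signal of 158 and rank 3133 of 6058. In replicate 2 the summit was 146 bp upstream and the signal 117, rank 2943 of 5333. Replicate 1 had no peak in this window even in its ranked list of 39515 peaks, and neither had the ranked list from which the conservative list was drawn.

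The capg-1 gene for the other HEAT-repeat subunit (WBGene00009254, chromosome I, 7634492 to 7639785, minus strand) had 2 overlapping peaks in the second list and none in the other 3 lists. Their summits were 255 and 469 bp upstream, with signals of 74.7 (rank 5542) and 10.5 (rank 5977 of 6058). In the ranked list behind the conservative one their scores were 706 and 707, below 830, at an IDR of 0.0198. These peaks were just outside the conservative set and near the bottom of the second one.

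**Figure D2:**
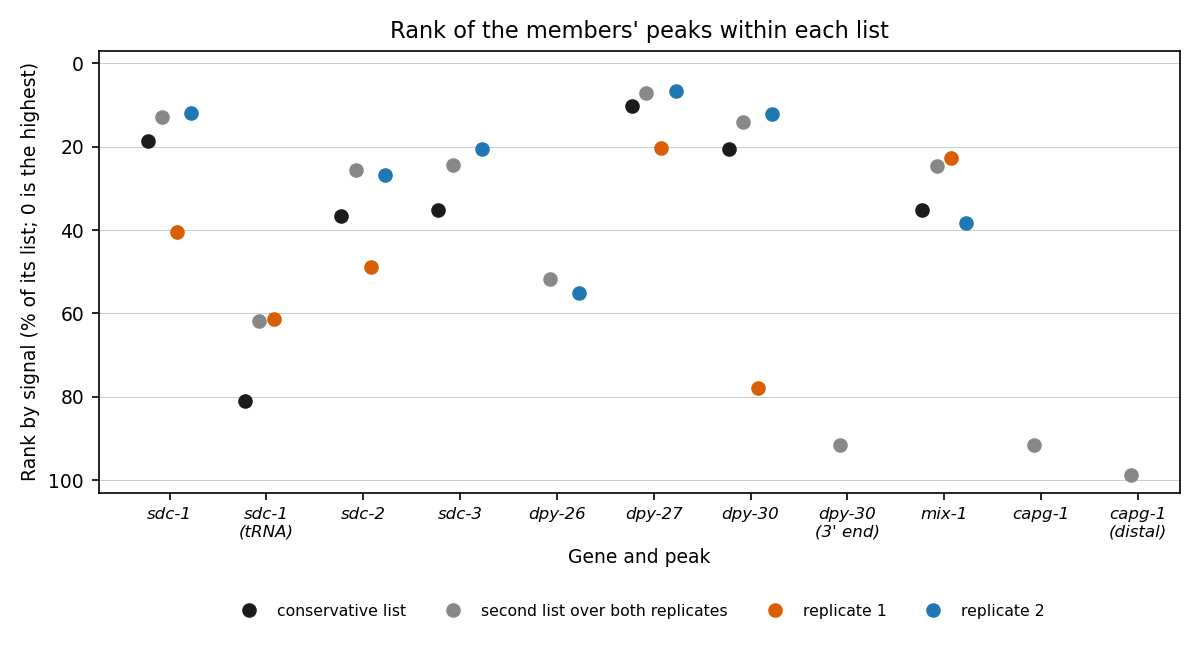
Rank by the authors' signal of each peak of the members, as a percentage of its list (vertical axis, 0 at the top is the highest signal), in the 4 thresholded lists shown as colours. The dpy-27 peak has the highest rank of the members in the conservative list (426 of 4149), and the dpy-30 promoter peak shows the widest gap between replicate 1 (2599 of 3340) and replicate 2 (653 of 5333).

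The genes without a thresholded peak differed below the threshold. At dpy-28, which encodes a HEAT-repeat subunit (WBGene00001087, chromosome III, 10763131 to 10777076, plus strand) both replicates had a ranked peak on the annotated 5′ end. In replicate 1 its summit was 55 bp downstream, with a signal of 45.9, a score of 778 and an IDR of 0.0134. In replicate 2 it was 3 bp downstream, with a signal of 24.3, a score of 537 and an IDR of 0.0509. The ranked list behind the conservative one gave the peak there an IDR of 0.270, further from the threshold than either replicate. The gene tasp-1 lies 109 bp upstream of dpy-28 on the same strand, so position alone does not assign these peaks to dpy-28.

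At dpy-21, the demethylase gene (WBGene00001080, chromosome V, 17936282 to 17949193, minus strand) no ranked list held a peak in the promoter window. Its region held 10 ranked peaks in replicate 1 and 7 in replicate 2. The one with the highest score, 769 in replicate 1 (signal 11.1, IDR 0.0140), lay 12719 bp downstream of the nearest 5′ end, near the 3′ end of the gene. At mix-1 the best ranked promoter peaks had an IDR of 0.604 in replicate 1 and 0.521 in replicate 2. At dpy-27 only replicate 1 had one, with an IDR of 0.834. At capg-1 these values were 0.165 in replicate 1 and 0.0494 in replicate 2. In the ranked list behind the conservative one, the lowest IDR in the promoter window was 0.0971 at mix-1 and 0.350 at dpy-27. A ranked peak in the promoter window in both replicates was found for 7 of the 10 members, against 21.7% of all protein-coding genes. The peaks of the replicates did not have to lie at the same place for this count, and at mix-1 they did not. Replicate 1 had a further ranked peak at mix-1 just outside the window, 117 bp downstream, with an IDR of 0.237. Those 7 include the 3 genes that passed in both replicates alone, sdc-1, sdc-2 and dpy-30.

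**Figure D3:**
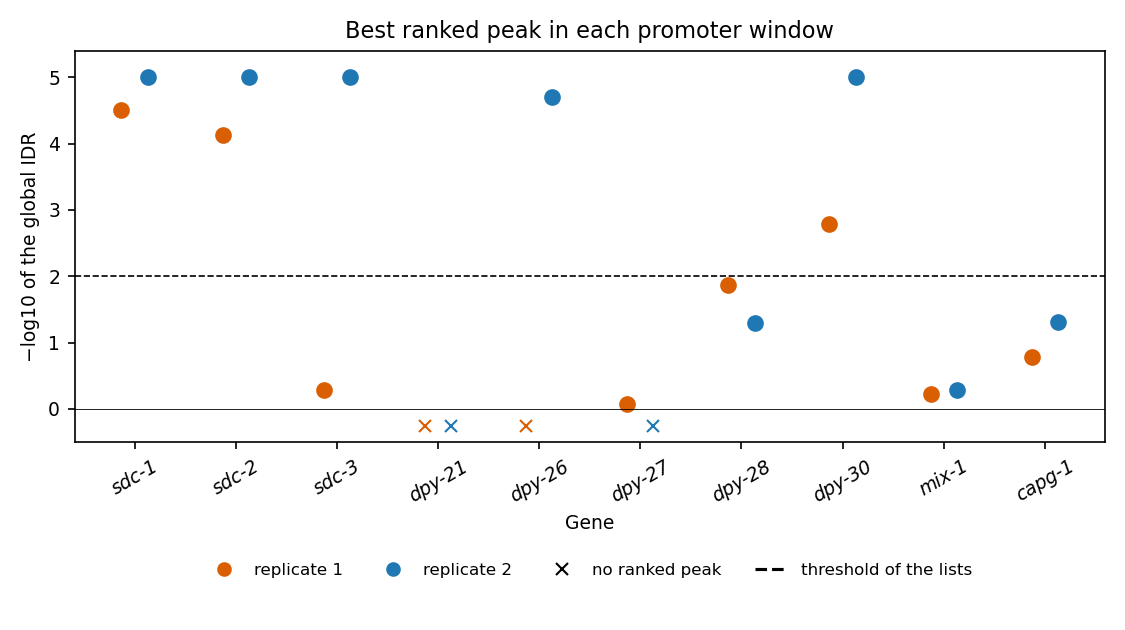
The ranked peak with the lowest IDR in the promoter window of each gene, as −log10 of the global IDR (vertical axis), in replicate 1 and replicate 2; a cross marks a gene with no ranked peak there, and the dashed line at 2.00 is the threshold of the lists. Both replicates pass at sdc-1, sdc-2 and dpy-30, replicate 2 alone passes at sdc-3 and dpy-26, and dpy-28 is below the line in both.

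Set beside all protein-coding genes, the members more often had a peak in every list. In the conservative list this was 6 of 10 members, against 20.2% of all genes. In the second list it was 8 of 10, against 27.4%. In replicate 1 it was 5 of 10 against 16.2%, and in replicate 2 it was 7 of 10 against 25.8%, which gives 60.0% ± 14.1 for the members and 21.01% ± 6.78 for all genes (SD, n = 2 replicates). The members' regions are long, with a median of 9916 bp against 4027 bp for all genes, and a longer region can hold more peaks. Among genes whose region was as long as the upper quartile or longer (5636 bp), 5 of the 9 members had a conservative peak, against 31.4% of all such genes. This comparison by length was added after the lengths were seen.

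Each promoter window has a fixed length, but a gene with several annotated 5′ ends has several windows, as sdc-1 and dpy-21 do with 2 ends each. No promoter share by gene length was computed. A summit in the promoter window was found for 4 of 10 members in the conservative list, against 9.68% of all genes, and for 6 of 10 in the second list, against 13.7%. Replicate 1 had 3 of 10, against 6.91%, and replicate 2 had 5 of 10, against 13.3%, which gives 40.0% ± 14.1 for the members and 10.09% ± 4.50 for all genes (SD, n = 2 replicates). With the narrow window of 250 bp upstream to 50 bp downstream the count was 1 of 10 (sdc-3), against 6.07% of all genes. Inside the annotated gene alone, 1 of 10 members (mix-1) had a conservative peak, against 9.12% of all genes. These counts were not tested, because the genes were listed with results of these data known.

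**Figure D4:**
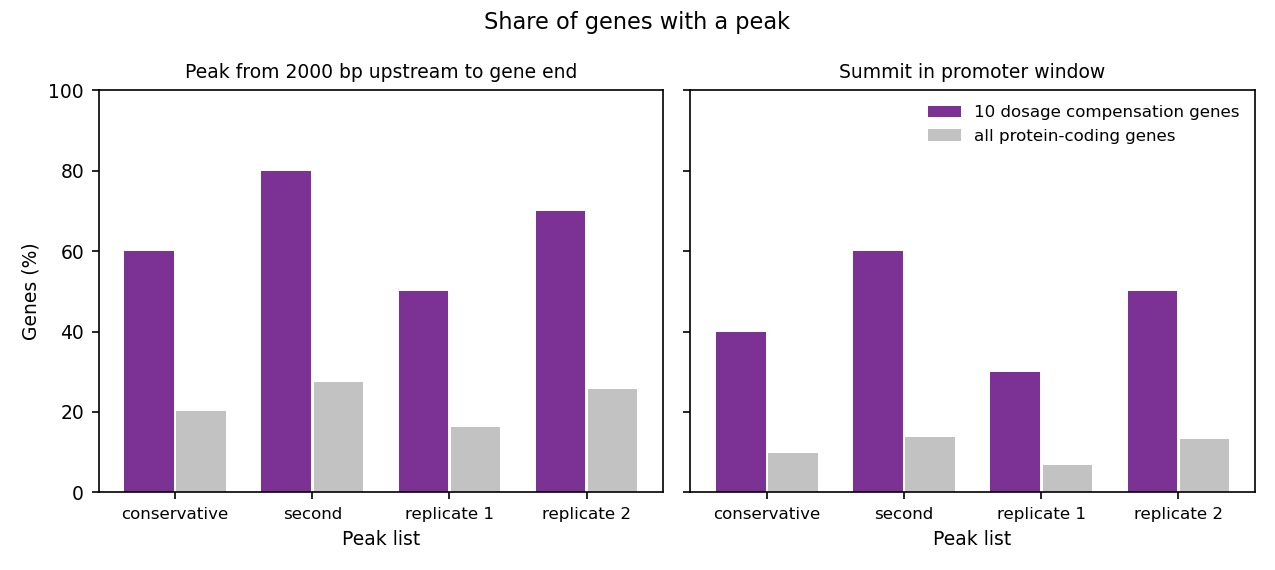
Percentage of genes (vertical axis) with a peak from 2000 bp upstream to the gene end (left) or a summit in the promoter window (right), for the 10 members and for all 19973 protein-coding genes in each of the 4 peak lists. The members' share exceeds that of all genes in each list, for example 60.0% against 20.2% in the conservative list.

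Of the members' promoter peaks, the 4 in the conservative list had signals above the median of such peaks. These signals ran from 328 at sdc-2 to 578 at sdc-1 and compare with a median of 249 over all 1682 conservative promoter peaks. The member peak nearest the top of the conservative list was that of dpy-27, at rank 426. Where both replicates had a thresholded peak, at 5 of the 7 conservative peaks, the replicates' summits were 9 to 43 bp apart with a median of 19 bp. Over all 2640 conservative peaks with a peak in both replicates the median was 13.0 bp.

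Other genes linked to the complex or to sex determination, called partner genes here, were counted from 4 lists with 23 genes in all. Of these, 13 had a conservative peak in their region and 8 had a summit in the promoter window. For all genes the shares in this list are the 20.2% and 9.68% above. In the list of replicate 1 alone 7 of the 23 had a peak, against 16.2% of all genes. In that of replicate 2 alone 14 had one, against 25.8%. The partners' regions too are longer, with a median of 6823 bp. The COMPASS list, whose products share DPY-30 as a subunit, had a peak in 5 of 6 genes. The peak of set-16, a histone H3 methyltransferase gene, had a signal of 3107 (rank 29), with the summit 165 bp upstream and 181 bp upstream of drr-2. That of ash-2, a core subunit gene, had a signal of 1966 (rank 105) and a summit upstream of a 5′ end within the gene; a further conservative peak in the ash-2 region lay in a coding exon of Y17G7B.20 (signal 81.3, rank 3981). The peaks of set-16 and the higher one of ash-2 were in the thresholded lists of both replicates, and in the conservative list both ranked above every member. With replicate 1 alone 3 of the 6 genes had a peak (set-2, ash-2 and set-16), and with replicate 2 alone all 6 had one. The peaks of set-2 (signal 157), wdr-5.1 (signal 107) and rbbp-5 (rank 3783) stood lower in the list. That of wdr-5.1 was 13 bp upstream of C14B1.3 and 1734 bp upstream of wdr-5.1 itself. That of rbbp-5 was 31 bp upstream of tpp-2 and 202 bp upstream of rbbp-5.

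Of the other condensin subunit genes 3 of 4 had a conservative peak, with low signals. These were smc-4 (155, 125 bp upstream and 46 bp upstream of F35G12.7), hcp-6 (117, at 132 bp upstream of both hcp-6 and let-630) and kle-2 (94.4). The kle-2 peak was 684 bp upstream of kle-2 and 118 bp upstream of C29E4.12, and it was absent from the other 3 lists. The smc-4 and hcp-6 promoter peaks were listed in replicate 2 and not in replicate 1, whose single peak among these 4 genes lay in a coding exon of hcp-6, 5940 bp downstream. Both histone H4 methyltransferase genes, set-1 (269) and set-4 (272), had a peak, 1473 bp and 232 bp upstream, and only that of set-4 was listed in replicate 1.

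Sex determination genes had a conservative peak in 3 of 11 cases (27.3%), near the 20.2% of all genes. With replicate 1 alone 2 of the 11 had a peak, against 16.2% of all genes. With replicate 2 alone 4 had one, against 25.8%. The summit at ceh-39, a homeobox gene of the X signal, was 174 bp upstream with a signal of 554. It was also 127 bp upstream of T26C11.10, a non-coding RNA gene. At tra-3, a calpain gene, the signal was 1272 at 1219 bp upstream. At tra-1, which encodes the terminal zinc finger regulator of sex, it was 230 at 529 bp upstream, and replicate 1 did not list this peak. The other 8 genes, among them the switch gene xol-1, had no conservative peak in their region.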

How the data were processed

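ChIP-seq peak lists of 2 samples, replicates 1 and 2 of 1 group by the numbers in the labels, were analysed; whether the replicates were separate cultures is not stated. Per the labels the lists use the ce11 build; for the aligner and the peak caller, and for read depth, the sources used here give no entry. The authors deposited, per peak, a signal value on an unstated scale, an IDR score capped at 1000, a summit offset and, in ranked lists, the −log10 of the global IDR. The 8 further columns of each ranked list over both replicates name no sample and were not used. The ranked list behind each thresholded list over both replicates was the one that held all its peaks.

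Genes and 5′ ends came from Ensembl release 115 (WBcel235) and the sequence from RefSeq. Regions needed an overlap of at least 1 bp, and promoter windows the summit. Scripts ran in Python 3.11.15 with numpy 2.4.6, and the assignment of peaks was tested on placed peaks. The members, lists and motifs were chosen with earlier results of these data known. All members are named, as are partner genes with a conservative peak. No fold, interval or test was computed. Alternatives changed the list, threshold, overlap, window and 5′ end, or kept 1 replicate.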

Additional observations from a re-analysis of the deposited data

How the results depend on the processing

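Of 34 alternatives tried for 4 counts, 27 stayed within 1.5 times the reported count. The number of members with a peak in their region (6) ran from 5 to 7 with either replicate's list alone and became 1, mix-1, when only the annotated gene was searched. The number with a summit in the promoter window (4) ran from 3 to 5 with 1 replicate and was 1 with the window of 250 bp upstream to 50 bp downstream. The number of peaks (7) ran from 6 to 7 with 1 replicate, was 11 in the second list and 1 in the gene alone. Partner genes with a peak (13) ran from 7 (replicate 1 alone) to 14 (replicate 2 alone), and were 6 with only the peaks above the median signal and 4 in the gene alone. These smaller windows and lists hold fewer peaks by construction. The median GC of the members' windows, 49.5%, was 47.1% with 25 bp on either side of the summit and 45.3% with 100 bp. No paired analysis was possible because there is 1 group. Unknown depth limits every statement on genes without a peak.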

Other observations

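The window at the mix-1 intron holds 2 letter strings that were noticed after the windows were printed. GGTTCGA is the core of the B box, a promoter element inside tRNA genes, and GGTCTAG also occurs in the tRNA gene at the edge of the sdc-1 region. Of the 4149 conservative windows, 128 hold GGTTCGA (3.09%), 81 of them among the 394 windows that overlap an annotated tRNA gene. GGTCTAG is in 52 windows (1.25%), 46 of them on tRNA genes. Both strings together occur in 8 windows, 6 on tRNA genes and 2 off them, of which mix-1 is 1. The annotation places only mix-1 and 3 bp of the snoRNA gene M106.6 in this window, and the nearest annotated tRNA gene is 317533 bp from the summit. Whether the intron holds a tRNA-like sequence was not tested.

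The windows differ in their share of pyrimidines (C or T) on the strand of the gene, also noticed after they were printed. The share was 73.3% at sdc-2 and at dpy-27, 66.3% at sdc-3 and 63.4% at dpy-30, while at the sdc-1 promoter the purines made up 68.3%. It was 54.5% at the tRNA edge of sdc-1 and 44.6% in the window at the mix-1 intron. Among upstream windows of the second list it was 55.4% at dpy-26 and 53.5% and 50.5% at capg-1. On whichever strand was richer, the 7 member windows had a median of 66.3%, against 57.4% over all conservative windows, with quartiles of 53.5% and 63.4%. No test was made of this difference.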
